A study of Homo sapiens with 6 samples.

Results

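Nascent RNA of NF-kappaB target genes and chemokines was examined in HCT116, a long established line of human colorectal carcinoma cells, after knockdown or chemical inhibition of glutathione S-transferase omega 1 (GSTO1). The group held 10 genes taken by name from the sense-strand rows of every library, of 22798 gene names in all: the chemokine genes CXCL1, CXCL2, CXCL3 and IL8, the inhibitor genes NFKBIA and TNFAIP3, the subunit genes RELB, NFKB1 and NFKB2, and the survival gene BIRC3. All 10 were found in all 6 libraries, with 1 row each, and no other gene of the files overlapped any of them on either strand.

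RNA made during 0.5 h of bromouridine labelling was captured and sequenced (Bru-seq), which reads transcription over exons and introns rather than the pool of mature messenger RNA. The vehicle group was 2 libraries of HCT116 cells in 0.01% DMSO for 4 h. The treated groups, with 1 library each, were GSTO1 siRNA at 10 nM for 24 h (siGSTO1), the GSTO1 inhibitor C1-27 at 1 μM for 4 h and for 24 h, and C1-14, an analogue described as inactive, at 10 μM for 4 h. The siRNA time of 24 h is given by the sample label and by the study's results, although its methods can be read as 4 h. No library of a non-targeting siRNA and none of DMSO for 24 h was analysed here, so effects of transfection and of time in culture cannot be told apart from those of siGSTO1, and those of time cannot be told apart from those of C1-27 at 24 h. The labels do not say whether the DMSO libraries came from separate cultures, and p-values then measure only the spread between these libraries, which may be technical.

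Sense counts ranged from 18112861 to 36841146 per library. The epithelial markers KRT8, KRT18, KRT19 and EPCAM lay between 2.57 and 11.9 reads per kilobase of gene and 1000000 mapped reads (RPKM) in all 6 libraries, whereas the leukocyte gene PTPRC did not exceed 0.000828 RPKM and CD3E was at 0. KRT20 and VIL1, markers of differentiated gut epithelium, were at or under 0.0262 RPKM. The macrophage gene CD68 was at 0.382 to 0.569 RPKM and the endothelial gene PECAM1 at 0.168 to 0.374 RPKM in a single cell line. The fibroblast gene COL1A1 was at 0.0609 to 0.313 RPKM, highest with siGSTO1. GSTO1 itself was at 3.51 and 3.72 RPKM in DMSO and 2.70 RPKM in the siGSTO1 library, a ratio of 0.747 (edgeR log2 -0.53 ± 0.27 SE, adjusted p = 0.330). An siRNA acts on mature RNA, so nascent GSTO1 RNA is no direct check of the knockdown.

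NF-kappaB is a family of dimeric transcription factors that inhibitor proteins hold in the cytoplasm until a signal, such as TNF, interleukin 1 or a Toll-like receptor ligand, leads to destruction of the inhibitor. The freed dimers enter the nucleus and start genes for chemokines and for survival proteins, and also genes for their own inhibitors and subunits, which limit or prolong the response. In gut epithelium the chemokines encoded by CXCL1, CXCL2, CXCL3 and IL8 attract neutrophils through the receptors CXCR1 and CXCR2.

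Promoters of 5 of these genes are shown first, because NF-kappaB acts through a short DNA element and because these genes had the largest ratios to DMSO in any library. The sequences are the 250 bases before the RefSeq transcription start on GRCh38.p14, written 5′ to 3′ on the strand of the gene, at chr4:73740319-73740568 (plus strand, RefSeq symbol CXCL8), chr4:73869143-73869392 (plus), chr4:74099196-74099445 (minus), chr4:74038690-74038939 (minus) and chr11:102317234-102317483 (plus). Capitals mark matches, on either strand, to the NF-kappaB consensus (GGG, a purine, 2 bases of any kind, 2 pyrimidines and CC) or to its 9-base form without the first G.
IL8: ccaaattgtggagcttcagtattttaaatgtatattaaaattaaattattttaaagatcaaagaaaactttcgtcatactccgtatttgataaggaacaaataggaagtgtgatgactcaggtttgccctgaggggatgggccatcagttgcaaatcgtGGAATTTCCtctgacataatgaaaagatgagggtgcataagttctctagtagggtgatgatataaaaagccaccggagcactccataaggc
CXCL1: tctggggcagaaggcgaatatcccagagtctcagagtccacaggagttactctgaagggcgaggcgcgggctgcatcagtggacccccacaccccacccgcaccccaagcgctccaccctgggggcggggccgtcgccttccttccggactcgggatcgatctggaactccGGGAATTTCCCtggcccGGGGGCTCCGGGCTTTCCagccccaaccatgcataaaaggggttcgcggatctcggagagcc
CXCL2: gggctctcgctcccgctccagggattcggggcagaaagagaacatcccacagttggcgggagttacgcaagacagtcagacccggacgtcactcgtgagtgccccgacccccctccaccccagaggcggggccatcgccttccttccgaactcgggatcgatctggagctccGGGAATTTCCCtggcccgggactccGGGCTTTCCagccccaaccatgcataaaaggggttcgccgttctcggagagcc
CXCL3: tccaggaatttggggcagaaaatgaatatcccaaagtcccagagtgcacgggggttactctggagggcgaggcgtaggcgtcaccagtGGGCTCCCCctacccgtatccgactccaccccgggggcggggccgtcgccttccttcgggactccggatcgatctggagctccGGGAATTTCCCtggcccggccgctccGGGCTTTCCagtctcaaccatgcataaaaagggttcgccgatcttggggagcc
BIRC3: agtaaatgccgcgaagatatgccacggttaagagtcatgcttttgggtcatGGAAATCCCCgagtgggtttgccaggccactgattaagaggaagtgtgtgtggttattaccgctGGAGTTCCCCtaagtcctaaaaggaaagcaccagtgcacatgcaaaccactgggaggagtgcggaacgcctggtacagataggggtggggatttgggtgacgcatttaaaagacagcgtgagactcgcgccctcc

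CXCL1, CXCL2 and CXCL3 held the same run, GGGAATTTCCC, which matches the consensus on both strands in an overlapping pair and begins 79, 78 and 79 bases before the start. Each of these 3 promoters also held the 9-base match GGGCTTTCC beginning 53 bases before the start. IL8 held only the 9-base form, GGAATTTCC beginning 91 bases before its start, which reads as a match on both strands. BIRC3 held a pair of consensus matches further away, GGAAATCCCC beginning 199 bases and GGAGTTCCCC beginning 135 bases before the start, both on the opposite strand. The search covered windows of 300 bases, from 250 before to 50 after each start. In these windows the consensus was found for 8 of the 9 group members that have one in the RefSeq table, against 13.3% of 27305 genes, or 11.3% of 35116 windows. The 9-base form, added after IL8 had been seen to lack the longer one, was in 35.8% of genes and 32.1% of windows. NFKBIA held the consensus 81 bases before its start, TNFAIP3 67 and 55 bases before and NFKB1 49 bases before. The group was chosen as NF-kappaB targets, so its share of promoters with the consensus describes that choice and is no independent result. A match describes the sequence and does not show binding.

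With siGSTO1, IL8 was the one gene of 9 tested that rose by edgeR, where 3% of all tested genes were called higher and 1.16% lower. IL8, which encodes the neutrophil attractant interleukin 8 (hg19 chr4:74606223-74609433, plus strand), was at 0.0799 and 0.107 RPKM in the DMSO libraries, 0.557 with siGSTO1, 0.105 with C1-27 at 4 h, 0.0812 with C1-27 at 24 h and 0.108 with C1-14. The siGSTO1 library stood alone, and the other 5 lay close together. In RNA of whole cultures, more cells transcribing IL8 and more transcription per cell cannot be told apart. The reads behind these levels were few, with 6 and 14 counts in DMSO, 47 with siGSTO1 and 12 or 13 in each of the other libraries. The siGSTO1 level was 5.97-fold the DMSO mean, 6.98-fold DMSO library 1 and 5.22-fold library 2. Against the summed counts of both DMSO libraries, the exact 95% Clopper-Pearson interval of the ratio was 3.34 to 10.2, and like all such intervals here it covers counting error only. edgeR's quasi-likelihood test across 14430 genes gave IL8 a log2 change of 2.42 ± 0.74 (SE) and a Benjamini-Hochberg adjusted p of 0.0326. Without the filter on low counts the edgeR adjusted p was 0.0596, and DESeq2 gave an unadjusted p of 0.0918 and no adjusted one.

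**Figure D1:**
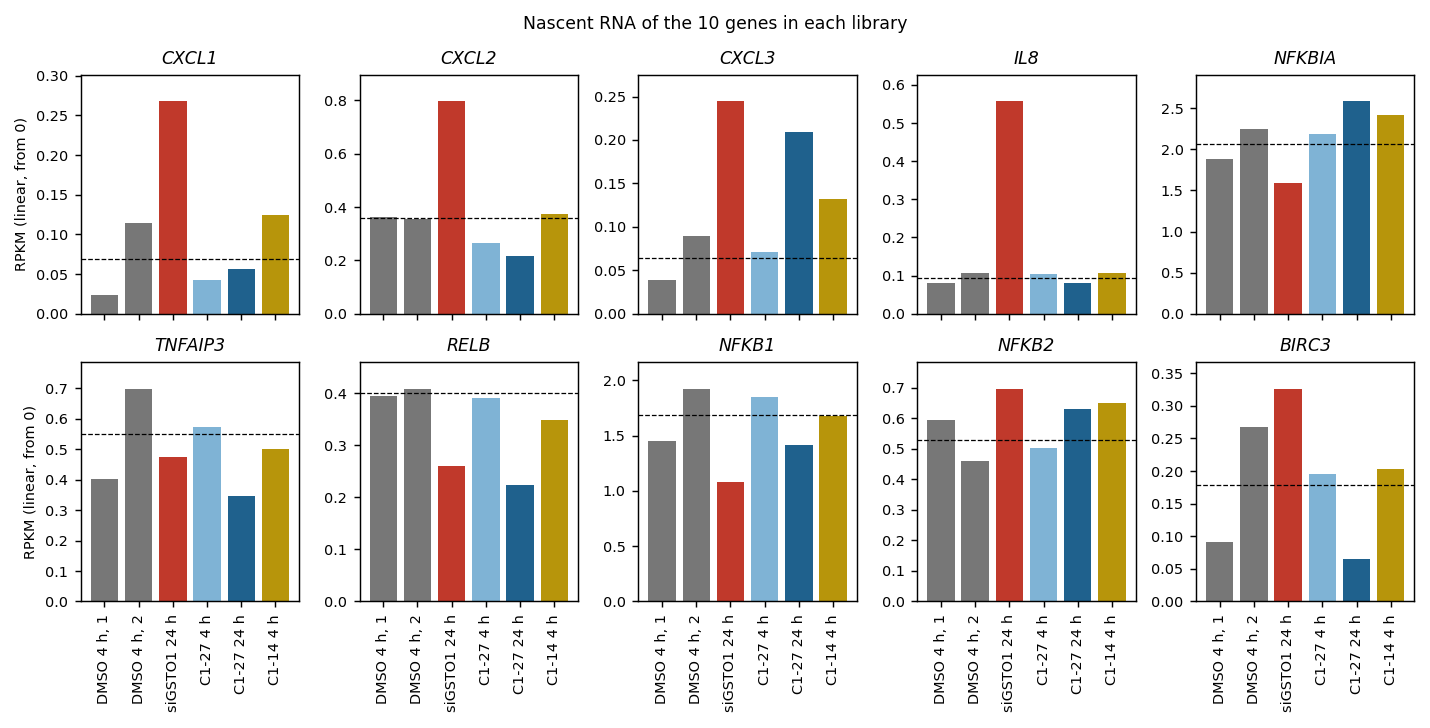
Nascent RNA level of each of the 10 genes (RPKM, linear axes from 0 that differ between panels) in the 6 libraries, 1 bar per library, with the mean of the 2 DMSO libraries as a dashed line. IL8 stands out at 0.557 RPKM with siGSTO1, and BIRC3 differs between the DMSO libraries (0.0915 and 0.267 RPKM) as well as between treatments.

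The CXC chemokines of the GRO family had values above DMSO in the same library. CXCL2 (hg19 chr4:74962754-74964997, minus strand) was at 0.362 and 0.357 RPKM in DMSO, 0.798 with siGSTO1, 0.266 with C1-27 at 4 h, 0.217 with C1-27 at 24 h and 0.373 with C1-14. Its DMSO libraries lay close together, siGSTO1 was above and both C1-27 libraries were below them. The siGSTO1 ratio was 2.22, with an exact 95% interval of 1.46 to 3.34, and edgeR did not call it (log2 1.02 ± 0.66 SE, adjusted p = 0.522).

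CXCL1 (hg19 chr4:74735109-74736955, plus strand), known as melanoma growth stimulating activity, had 1 and 8.58 counts in DMSO, 13 with siGSTO1, 3 and 4.81 with C1-27 at 4 h and 24 h, and 8 with C1-14. These are levels of 0.0231 and 0.114, 0.268, 0.0420, 0.0566 and 0.125 RPKM in the same order. The siGSTO1 level was the highest, but the DMSO libraries differed 4.92-fold between themselves. Its RPKM ratio to the DMSO mean was 3.91 with siGSTO1. Against the summed DMSO counts the ratio was 3.32, with an exact 95% interval of 1.29 to 8.10. CXCL1 had too few counts for the edgeR filter, and without that filter its adjusted p by edgeR was 0.751.

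CXCL3 (hg19 chr4:74902312-74904490, minus strand) was high in both libraries labelled 24 h rather than in one. Its levels were 0.0392 and 0.0900 RPKM in DMSO, 0.245 with siGSTO1, 0.0712 with C1-27 at 4 h, 0.209 with C1-27 at 24 h and 0.132 with C1-14. These rest on 2 and 8 counts in DMSO, 14 with siGSTO1 and 21 with C1-27 at 24 h. The RPKM ratios to the DMSO mean were 3.79 with siGSTO1 and 3.24 with C1-27 at 24 h. Against the summed DMSO counts they were 3.42 (exact 95% interval 1.41 to 8.61) and 2.93 (1.32 to 6.97). Neither passed edgeR, with log2 changes of 1.68 ± 0.94 and 1.52 ± 0.90 (SE) and adjusted p-values of 0.420 and 1.00.

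Summed over the 4 chemokine genes, the libraries held 1.20 and 1.55 counts per 1000000 reads in DMSO, 4.61 with siGSTO1, 1.16 and 1.31 with C1-27 at 4 h and 24 h, and 1.70 with C1-14. The sum is a description of genes chosen with earlier results known and has no test. CXCL1, CXCL2 and CXCL3 are near-identical in parts, and reads can be split between them. Of the 30-base words in the spliced CXCL1 transcript, 16.2% were also in CXCL2 and 3.09% in CXCL3, and 8.75% of those of CXCL2 were in CXCL3. Several deposited counts of CXCL1 and CXCL2 are not whole numbers, whereas those of CXCL3 are whole to rounding. Genes outside this family have fractions too, such as NFKBIA (297.192 counts in a DMSO library) and BIRC3 (65.5 with C1-27 at 24 h). The fractions are therefore no sign of reads split between these genes. How the 3 genes divide the reads is uncertain. IL8 shared no such word with any of them.

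The 4 chemokine genes lie in one cluster on chromosome 4, and most of their chemokine neighbours were silent. CXCL5 and CXCL6, which also signal to neutrophils, and the platelet chemokine genes PF4, PF4V1 and PPBP had 0 counts in all 6 libraries, which allows up to 3 counts in a library. EREG, which encodes the growth factor epiregulin and lies beside the cluster, was among the most transcribed genes named here at 14.7 to 23.7 RPKM, and MTHFD2L was at 0.706 to 0.882 RPKM. RASSF6, on the other side, had 40 and 64 counts in DMSO, 135 with siGSTO1 and 116 with C1-27 at 24 h, and was not called with siGSTO1 (edgeR log2 1.54 ± 0.53 SE, adjusted p = 0.0750). Of 13 neighbours listed in the files, 7 were tested and 0 were called in any of the 6 comparisons. Of all tested genes, 3% were called higher and 1.16% lower with siGSTO1, the largest shares of the 6 comparisons. An unadjusted edgeR p under 0.05 was found for at most 2 neighbours in a comparison, with C1-27 at 24 h, beside 3.74% of all tested genes.

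NFKBIA and TNFAIP3, whose products stop the NF-kappaB response, did not pass the test in any comparison. NFKBIA (hg19 chr14:35870716-35873960, minus strand) encodes IkappaBalpha, which holds the dimers in the cytoplasm and is itself a rapid target of them. It had the highest level per length of the group, at 1.88 and 2.25 RPKM in DMSO, 1.59 with siGSTO1, 2.18 with C1-27 at 4 h, 2.59 with C1-27 at 24 h and 2.42 with C1-14. The siGSTO1 level was below both DMSO libraries, at 0.768 of their mean (exact 95% interval of the count ratio 0.614 to 0.911), while the levels with C1-27 at 24 h and with C1-14 were above both. The edgeR adjusted p with siGSTO1 was 0.702.

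TNFAIP3 (hg19 chr6:138188581-138204449, plus strand) encodes the ubiquitin-editing protein A20. It was at 0.401 and 0.698 RPKM in DMSO, 0.475 with siGSTO1, 0.573 with C1-27 at 4 h, 0.348 with C1-27 at 24 h and 0.500 with C1-14. Only the C1-27 24 h library lay outside the DMSO range, at 0.633 of the DMSO mean (edgeR log2 -0.73 ± 0.43 SE, adjusted p = 1.00). The ratio was 0.866 against DMSO library 1 and 0.498 against library 2.

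Of the subunit genes, NFKB1 and RELB were at lower values with siGSTO1 while NFKB2 was not. NFKB1 (hg19 chr4:103422486-103538459, plus strand), the precursor of the p50 subunit, was the most deeply counted member, with 3304 to 9098 counts per library. Its levels were 1.45 and 1.92 RPKM in DMSO, 1.08 with siGSTO1, 1.85 with C1-27 at 4 h, 1.42 with C1-27 at 24 h and 1.67 with C1-14. The siGSTO1 library was the lowest, at 0.644 of the DMSO mean, or 0.749 of DMSO library 1 and 0.564 of library 2. edgeR gave log2 -0.75 ± 0.26 (SE) with an adjusted p of 0.0797, and the exact 95% interval of the count ratio was 0.597 to 0.644. For this gene the spread between the DMSO libraries, at 1.33-fold, is larger than the counting error.

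RELB (hg19 chr19:45504707-45541456, plus strand), the partner of p52 in the non-canonical pathway, was at 0.394 and 0.409 RPKM in DMSO, 0.261 with siGSTO1, 0.392 with C1-27 at 4 h, 0.223 with C1-27 at 24 h and 0.349 with C1-14. Both libraries labelled 24 h were the lowest. The ratios to DMSO were 0.650 with siGSTO1 (edgeR log2 -0.74 ± 0.38 SE, adjusted p = 0.367) and 0.556 with C1-27 at 24 h (log2 -0.90 ± 0.38 SE, unadjusted p = 0.0187, adjusted p = 0.957). Neither was called.

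NFKB2 (hg19 chr10:104154229-104162281, plus strand), the precursor of p52, was at 0.595 and 0.460 RPKM in DMSO, 0.696 with siGSTO1, 0.504 with C1-27 at 4 h, 0.631 with C1-27 at 24 h and 0.648 with C1-14. Its ratios ran from 0.956 to 1.32, and the smallest adjusted p by edgeR over the comparisons with DMSO was 0.868. The other subunit genes, RELA and REL, were at 1.06 to 1.62 and 1.05 to 1.27 RPKM. Neither was called in any comparison, nor had an unadjusted edgeR p under 0.05.

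BIRC3 (hg19 chr11:102188181-102210135, plus strand), which encodes the inhibitor of apoptosis protein cIAP2, had its highest and its lowest level in the libraries labelled 24 h. Its levels were 0.0915 and 0.267 RPKM in DMSO, 0.326 with siGSTO1, 0.195 with C1-27 at 4 h, 0.0648 with C1-27 at 24 h and 0.204 with C1-14. The corresponding counts were 47 and 239, 188, 166, 65.5 and 155. The siGSTO1 library was the highest and C1-27 at 24 h the lowest, and the DMSO libraries between them lay 2.92-fold apart. Between these treatments BIRC3 was 5.03-fold higher with siGSTO1 (exact 95% interval 3.75 to 6.71), and edgeR called this difference (log2 2.26 ± 0.59 SE, adjusted p = 0.0179), where it called 0.755% of all tested genes higher with siGSTO1. The call was lost with library totals in place of TMM scaling (edgeR adjusted p = 0.0602) and with DESeq2 (adjusted p = 0.583).

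Against DMSO neither BIRC3 change was called. With C1-27 at 24 h the level was 0.362 of the DMSO mean, 0.708 of library 1 and 0.243 of library 2 (edgeR log2 -1.54 ± 0.53 SE, unadjusted p = 0.00344, adjusted p = 0.406). With siGSTO1 it was 1.82-fold the mean, 3.56-fold library 1 and 1.22-fold library 2 (log2 0.71 ± 0.47 SE, edgeR adjusted p = 0.535). From 4 h to 24 h of C1-27 it went from 0.195 to 0.0648 RPKM, a ratio of 0.332 (log2 -1.66 ± 0.58 SE, unadjusted p = 0.00426, edgeR adjusted p = 0.787). Of the 10 genes, CXCL1 alone had a wider gap between the DMSO libraries.

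**Figure D2:**
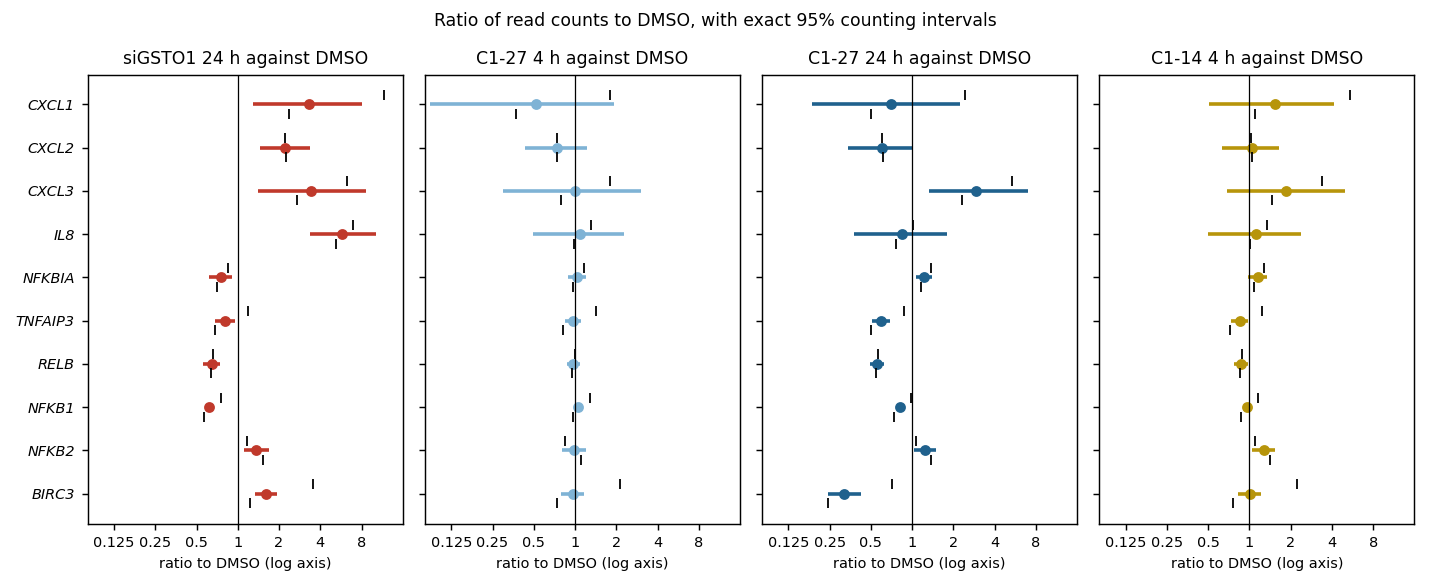
Ratio of the counts per 1000000 reads of each treated library to the pooled DMSO libraries (points, log axis), with the exact 95% counting interval (horizontal bars) and the ratio of RPKM to each DMSO library alone (black ticks, library 1 above and library 2 below the bar). With siGSTO1 the 4 chemokine genes lie right of 1, IL8 at 5.74 in pooled counts, while NFKBIA, TNFAIP3, RELB and NFKB1 lie left of it. BIRC3 has widely spaced ticks in every panel.

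Over the group, edgeR tested 9 of the 10 genes and called 1 higher and 0 lower with siGSTO1, and 2 of the 9 had an unadjusted p under 0.05, as did 14.3% of all tested genes. On the RPKM scale 5 genes passed the filter (a mean of treated and control RPKM over 0.5). Of these, CXCL2 was over 1.4-fold higher and NFKB1 over 1.4-fold lower, where 10.4% and 6.47% of all genes passing the filter were. CXCL2 passed the filter only through its siGSTO1 level, so its place in this count was set by the group where it is high. Against DMSO library 1 alone, NFKB1 did not reach 1.4-fold. Between the DMSO libraries themselves, 19.1% of 7819 genes differed by 1.4-fold or more. The other members, IL8 included, were under the RPKM filter or within 1.4-fold. Among the 9 tested genes, 5 were above both DMSO libraries and 3 below both, beside 47.7% and 25% of all tested genes. CXCL3, among the 5, met the count filter only through treated libraries in which it lay above both, this one included.

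With C1-27 at 4 h, 0 of the 9 genes were called by edgeR, 0 had an unadjusted p under 0.05, beside 0.721% of all tested genes, and DESeq2 called 0. The share called among all tested genes was 0.0139% higher and 0% lower. The ratios to DMSO of all 10 genes ran from 0.613 for CXCL1 to 1.12 for IL8. None of the 9 lay above both DMSO libraries and 2 lay below both, CXCL2 and RELB, where 19.1% and 28% of all tested genes did. Of the 4 genes that passed the RPKM filter, 0 were past 1.4-fold, beside 0.444% of genes higher and 2.18% lower.

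With C1-27 at 24 h, edgeR and DESeq2 also called 0 of the 9 genes, and 2 of them, BIRC3 and RELB, had an unadjusted edgeR p under 0.05, beside 3.74% of all tested genes. Among all tested genes 0.159% were called higher and 0.118% lower by edgeR. Above both DMSO libraries were 3 of the 9 genes, CXCL3, NFKBIA and NFKB2, and below both were 5, CXCL2, TNFAIP3, RELB, NFKB1 and BIRC3. Of all tested genes, 38.3% lay above and 21% below. CXCL3 met the count filter only through this library and other treated libraries in which it also lay above both. The medians of the 9 genes given next include CXCL3. The median edgeR log2 change of the 9 genes was -0.31, beside 0.00 for all genes tested, and 0.29 beside 0.02 with siGSTO1. Of the 3 genes passing the RPKM filter, 0 were past 1.4-fold, beside 3.22% of genes higher and 3.46% lower.

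From 4 h to 24 h of C1-27, edgeR called 0 of 9 genes, 2 had an unadjusted p under 0.05 (BIRC3 and RELB, beside 2.46% of all tested genes) and DESeq2 called 0. Of all tested genes 0.0416% were called higher and 0.0624% lower. RELB went from 0.392 to 0.223 RPKM, TNFAIP3 from 0.573 to 0.348 and NFKB1 from 1.85 to 1.42. Of 3 genes passing the RPKM filter 0 were past 1.4-fold, beside 5.15% higher and 1.61% lower.

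The compounds differed in dose, so their values are set side by side without a comparison. With C1-14 at 10 μM for 4 h, the ratios to DMSO of all 10 genes ran from 0.870 for RELB to 2.05 for CXCL3, which had 10.0 counts. The paper lists TNFAIP3 among the genes most lowered by C1-14. Here its level with C1-14 was 0.909 of the DMSO mean, 1.25-fold DMSO library 1 and 0.716 of library 2, so the ratio depends on the control library. With C1-27 at 1 μM for 4 h, the ratio for CXCL3 was 1.10. BIRC3 was at 0.204 RPKM with C1-14 and 0.195 RPKM with C1-27, NFKBIA at 2.42 and 2.18 RPKM, and IL8 at 0.108 and 0.105 RPKM. edgeR and DESeq2 called 0 of the 9 genes with C1-14, 0 had an unadjusted p under 0.05, beside 1.42% of all tested genes, and 0.111% of all tested genes were called higher and 0.00693% lower. Above both DMSO libraries were 5 of the 9 genes and below both 1, beside 24.3% and 26.8%. CXCL3, among the 5, met the count filter only through this library and those labelled 24 h, where it also lay above. Of 4 genes passing the RPKM filter 0 were past 1.4-fold, beside 3.7% higher and 0.99% lower.

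Between siGSTO1 and C1-27, both at 24 h, BIRC3 was the one gene called of 9, where edgeR called 0.755% of all tested genes higher and 0.236% lower with siGSTO1. IL8 was 6.86-fold higher with siGSTO1 (exact 95% interval 3.59 to 14.2, edgeR log2 2.70 ± 0.91 SE, adjusted p = 0.162). CXCL2 was at 0.798 against 0.217 RPKM, a ratio of 3.67 (log2 1.84 ± 0.80 SE, edgeR adjusted p = 0.542), whereas CXCL3 had a ratio of 1.17. NFKBIA was at 0.613 of its C1-27 level (edgeR adjusted p = 0.956). Of 4 genes passing the RPKM filter, CXCL2 was past 1.4-fold higher and NFKBIA past 1.4-fold lower, beside 8.68% and 4.59% of all such genes. CXCL2 again passed the filter only through its siGSTO1 level.

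The other genes of the pathway are given from lists that were likewise chosen with earlier results known and are described by counts. The counts with siGSTO1 in these lists stand beside 3% of all tested genes called higher and 1.16% called lower by edgeR. With siGSTO1, 0 of 9 tested genes of 26 other chemokines and cytokines were called. An unadjusted edgeR p under 0.05 was found for 1 of them, beside 14.3% of all tested genes. The most transcribed were IL18, at 1.06 and 2.81 RPKM in DMSO and 1.34 with siGSTO1, and LIF, at 1.93 and 1.91 RPKM in DMSO and 1.58 with siGSTO1.

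Of 20 receptor genes 14 were tested and IL1RAP, the accessory chain of the interleukin 1 receptor, rose. It was at 0.0804 and 0.0880 RPKM in DMSO and 0.231 with siGSTO1, and between 0.0735 and 0.0824 in the other libraries (edgeR log2 1.34 ± 0.34 SE, adjusted p = 0.00376). It was also higher with siGSTO1 than with C1-27 at 24 h (log2 1.47 ± 0.41 SE, edgeR adjusted p = 0.0371). The median log2 change of the 14 receptor genes was 0.58, beside 0.02 for all genes. The log2 values of the list above that of IL1RAP came from genes at or under 0.139 RPKM in every library, and none of these was called. TNFRSF12A and LTBR, the receptors for TWEAK and lymphotoxin and the most transcribed of the list, were at 2.15 and 1.85 RPKM with siGSTO1 and did not pass.

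All 30 adaptors, ubiquitin ligases and kinases were tested, and MAP3K14 and TRAF3 fell with siGSTO1. MAP3K14 encodes NIK, the kinase that starts the non-canonical pathway, and TRAF3 is the adaptor that keeps NIK unstable. MAP3K14 was at 2.68 and 3.53 RPKM in DMSO, 1.55 with siGSTO1 and 3.09 to 3.71 in the other libraries (edgeR log2 -1.12 ± 0.26 SE, adjusted p = 0.00147). TRAF3 was at 1.97 and 1.87 RPKM in DMSO and 1.12 with siGSTO1 (log2 -0.89 ± 0.27 SE, edgeR adjusted p = 0.0301). MAP3K14 was also lower with siGSTO1 than with C1-27 at 24 h (log2 -1.05 ± 0.29 SE, edgeR adjusted p = 0.0349). TRAF3 was at 1.85 RPKM with C1-27 at 4 h, 1.46 at 24 h and 1.69 with C1-14, all below both DMSO libraries. UBE2N, the most transcribed of the list and a ubiquitin-conjugating enzyme of this pathway, was at 4.47 to 5.39 RPKM in all libraries.

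Of 20 other inhibitor and feedback genes, all tested, PDLIM2 fell with siGSTO1, from 0.676 and 0.688 RPKM in DMSO to 0.231 (edgeR log2 -1.68 ± 0.43 SE, adjusted p = 0.00483). PDLIM2 promotes the breakdown of nuclear RELA. It was at 0.332 RPKM with C1-27 at 24 h, which was not called (log2 -1.09 ± 0.41 SE, edgeR adjusted p = 0.625). ITCH and TAX1BP1, partners of A20, were the most transcribed of the list and did not pass. ITCH was at 2.42 and 3.21 RPKM in DMSO and 2.38 with siGSTO1. TAX1BP1 was at 1.59 and 2.63 RPKM in DMSO and 1.78 with siGSTO1.

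Of 24 other survival and inflammatory targets 17 were tested, with 1 higher and 1 lower with siGSTO1. BTG2, an antiproliferative gene that p53 also induces, went from 0.989 and 1.13 RPKM in DMSO to 3.46 (edgeR log2 1.59 ± 0.42 SE, adjusted p = 0.00780). BCL2L1, which encodes the anti-apoptotic protein BCL-XL, went from 6.44 and 7.26 RPKM to 3.89 (log2 -0.93 ± 0.29 SE, edgeR adjusted p = 0.0370). BTG2 was at 1.24 RPKM with C1-27 at 4 h, 1.79 at 24 h and 1.26 with C1-14. BCL2L1 was at 6.83, 5.32 and 6.42 RPKM in the same order. With C1-27 at 24 h both genes lay outside the DMSO libraries on the same side as with siGSTO1. KLF6 was at 4.60 to 6.91 RPKM over all libraries and did not pass. With C1-27 at either time or with C1-14, 0 genes of any of these pathway lists were called against DMSO. Few genes of any kind were. Of all tested genes, 0.0139% were called higher and 0% lower with C1-27 at 4 h, and 0.159% and 0.118% at 24 h. With C1-14 these shares were 0.111% and 0.00693%.

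**Figure D3:**
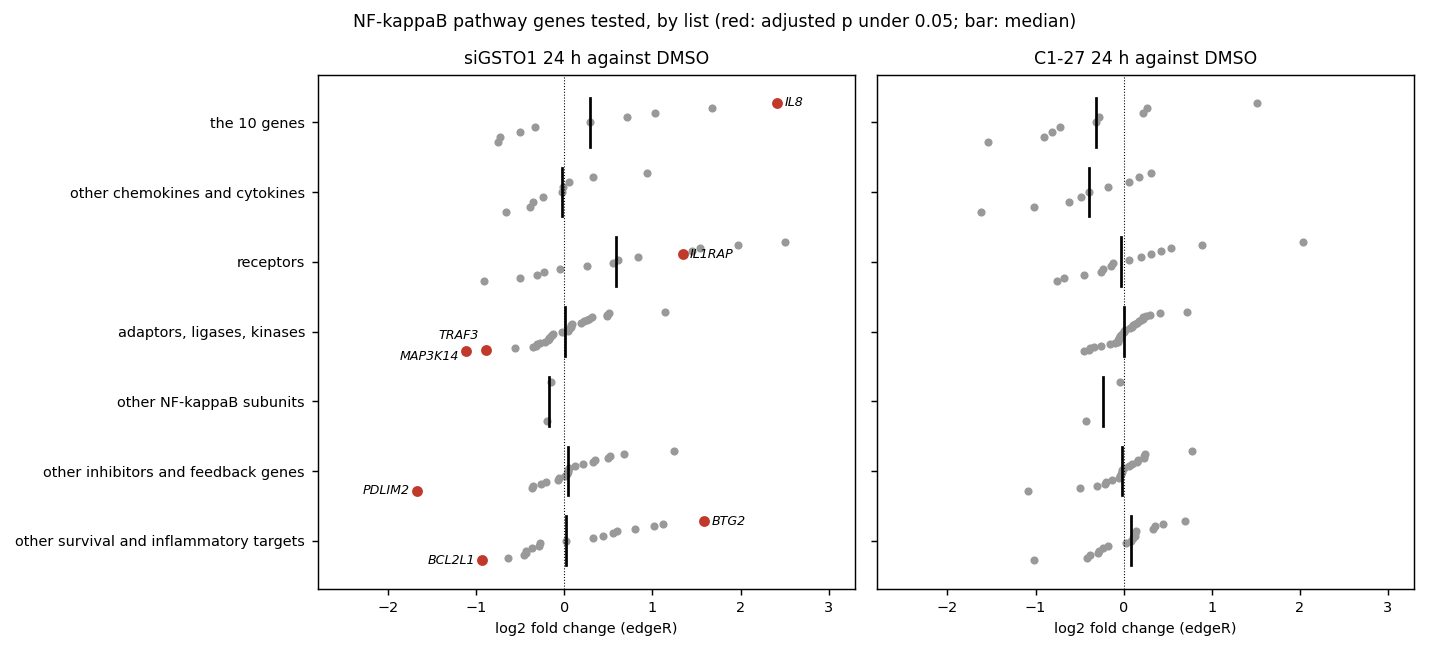
Log2 fold change by edgeR (horizontal axis) of every tested gene of each NF-kappaB pathway list with siGSTO1 (left) and with C1-27 at 24 h (right) against DMSO, 1 point per gene, red where the adjusted p was under 0.05, with a bar at the median of each list. IL8, IL1RAP and BTG2 are red on the right of 0 and MAP3K14, TRAF3, PDLIM2 and BCL2L1 on the left with siGSTO1, and no gene is red with C1-27.

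Among genes with at least 0.5 RPKM in every library, those whose log2 RPKM followed IL8 most closely over the 6 libraries were NAIP, SPG21 and HOXB3 (Pearson r of 0.993, 0.976 and 0.973). For CXCL1 they were ZNF18, TMEM185B and ENTPD4 (0.965, 0.960 and 0.957) and for NFKBIA THAP5, MRPL19 and ATP5C1 (0.997, 0.996 and 0.993). These are descriptions over 6 libraries that share their depth with both genes, and they were picked as the highest of about 7110 genes. IL8 was at 0.557 RPKM with siGSTO1 and 0.0799 to 0.108 elsewhere, so the siGSTO1 library largely sets its correlations. Those of CXCL1 rest on 1 to 13 counts per library.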

How the data were processed

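Per the labels, bromouridine-labelled RNA was captured with an antibody and sequenced, giving 1 file for each of 6 libraries. The deposited expected counts are reads over the whole gene, introns included, on each strand, and many are not whole. The deposited signal is the count divided by gene length. It served, together with the deposited RPKM, to back-calculate the mapped reads of each library. These back-calculated totals are the denominators of the exact intervals, the pooled count ratios and the summed chemokine counts. The authors divided the counts by gene length and mapped reads to give the deposited RPKM. The submitters' processing notes name CASAVA 1.8.2, Bowtie 0.12.8, TopHat 1.4.1, bedtools 2.16.2 and hg19.

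The genes, lists and naming rule were chosen with earlier results of these data known. Named were the 10 genes, GSTO1 and, from each list, genes with an adjusted p under 0.05 and the 2 with the highest mean RPKM. RASSF6, the cluster neighbours at 0 and the marker genes named outside this rule were chosen after their values were seen. Ratios were treated RPKM over the DMSO mean, without a pseudocount. A 1.4-fold difference was counted in genes above 300 bp if treated and control RPKM averaged over 0.5. Rounded counts of 14430 genes (above 300 bp, 10 counts or more in 2 libraries or more) were fitted in 5 groups with edgeR 4.0.16 in R 4.3.3 (TMM, quasi-likelihood, Benjamini-Hochberg threshold 0.05). The only residual degree of freedom comes from DMSO, whose libraries differed with an SD of 0.382 in log2 RPKM over 7819 genes, and each lone library is assumed to vary likewise. Going from the mapped reads behind the RPKM to TMM-scaled totals of sense counts shifted siGSTO1 log2 changes by -0.113. Scripts were tested on simulated data. DESeq2 1.42.0 was an alternative, and bias-adjusted deviances in edgeR were an addition made after seeing the data. Exact intervals used scipy 1.17.1.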

Additional observations from a re-analysis of the deposited data

Results flagged for a closer look

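BIRC3 differed between the 24 h treatments by the edgeR test of the difference itself, with a log2 value of 2.26 for siGSTO1 over C1-27 (SE 0.59, adjusted p = 0.0179, 1 library each). It was above both DMSO libraries with siGSTO1 (0.326 against 0.0915 and 0.267 RPKM) and below both with C1-27 (0.0648 RPKM). The edgeR adjusted p ranged from 0.00426 to 0.0602 over the other edgeR settings, and DESeq2 gave 0.583. No group had enough libraries for a check of single outlying samples.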

How the results depend on the processing

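Each treatment had 1 library, so leaving out a DMSO library left edgeR no residual degree of freedom and gave values without a test. Of 300 alternative tests of single genes, 289 kept their direction and side of the threshold and 7 turned direction, all with log2 values near 0. RELB with C1-27 at 4 h went from -0.01 to 0.0067 with DESeq2 size factors, 0.0047 with only the libraries compared and 0.0069 with DESeq2. NFKB1 with C1-14 went from 0.0048 to -0.0046 with library totals, -0.0098 with DESeq2 size factors, -0.0064 without the count filter and -0.0097 with DESeq2. With either DMSO library alone, the genes past 1.4-fold with siGSTO1 were 1 to 2 higher and 0 to 3 lower, those with C1-27 at 24 h 0 to 1 lower and those with C1-14 0 to 1 higher. Against DMSO library 2 alone, NFKB2 joined with siGSTO1 and with C1-14, TNFAIP3 with siGSTO1 and with C1-27 at 24 h, and NFKBIA with siGSTO1. Against library 1 alone NFKB1 was no longer past 1.4-fold with siGSTO1.

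RPKM rescaled with TMM or DESeq2 factors gave 2 genes lower with siGSTO1 (NFKBIA and NFKB1) and 0 higher with siGSTO1 against C1-27 at 24 h, where CXCL2 went under the RPKM filter. DESeq2 factors gave 1 lower from 4 h to 24 h of C1-27 (NFKB1). Without the RPKM filter there were 5 higher and 2 lower with siGSTO1, 1 lower with C1-27 at 4 h, 1 higher and 4 lower with C1-27 at 24 h, 2 higher with C1-14, 1 higher and 3 lower from 4 h to 24 h of C1-27, and 4 higher with siGSTO1 against C1-27. With a mean RPKM over 1, 0 were higher with siGSTO1 against DMSO or against C1-27, since CXCL2 was then filtered out.

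By edgeR, siGSTO1 had 0 genes called against DMSO without the count filter (IL8 adjusted p = 0.0596). Against C1-27 at 24 h it had 0 with library totals, 0 with DESeq2 and 2 with bias-adjusted deviances (BIRC3, and IL8 at 0.0140). The cause was not tested. DESeq2 gave no adjusted p for IL8 with siGSTO1. No paired analysis was possible because each treatment had a single library and only DMSO had 2. The 6 to 47 counts of IL8 and the 1 to 13 of CXCL1 limit what their ratios can show.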

Other observations

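Antisense counts over the 10 genes were 0 in all 6 libraries for CXCL1, CXCL2, CXCL3, IL8, NFKBIA and TNFAIP3. Summed over the libraries they were 18.9 for RELB, 19.0 for NFKB1, 36.8 for NFKB2 and 4.00 for BIRC3, which is at most 3.74% of the sense counts of the gene.

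KRT8, an epithelial keratin gene, fell with C1-27 at 24 h by edgeR, from 9.60 and 5.81 RPKM in DMSO to 3.90 (log2 -1.03 ± 0.27 SE, adjusted p = 0.0440). It was the one gene called among 6 epithelial marker genes tested. With C1-27 at 24 h, 0.118% of all tested genes were called lower. Of 4 non-epithelial marker genes tested, 0 were called in any comparison (at most 1 at an unadjusted p under 0.05 in a comparison by edgeR).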
